A study of Homo sapiens with 14 samples.

Results

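Mitochondrial ribosomal proteins (MRPs) are encoded in the nucleus, made on cytosolic ribosomes and imported into mitochondria, where they assemble with rRNAs of the mitochondrial genome into the mitoribosome. The mitoribosome makes the few membrane subunits of oxidative phosphorylation that the mitochondrial genome encodes. Its large subunit (named MRPL) forms peptide bonds and its small subunit (MRPS) reads the mRNA; some proteins of both have bacterial relatives, and others are found only in mitochondria. The members were the rows of the RPKM table whose symbol is MRPL or MRPS followed by a number and at most 1 letter from A to C. These are 73 of 21574 rows, and 3 rows that join an MRP gene with a second gene, holding MRPL3, MRPS6 and MRPS24, were not counted. By known structure, 48 members belong to the large subunit, of which 29 have a bacterial counterpart at the same place and 19 hold places particular to mitochondria, and 24 belong to the small subunit, of which 14 have such a counterpart and 10 do not. MRPS30 and MRPS18A carry small-subunit names but sit in the large subunit, and were counted there. MRPS18A and MRPS18B are related to bacterial S18, as is MRPS18C, but were counted as particular to mitochondria by their places. MRPS36, now assigned to the 2-oxoglutarate dehydrogenase complex, was kept as a member by its name but placed in neither subunit.

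The study compared cells labelled HepG2, a hepatocellular carcinoma line, after transfection with a scrambled siRNA (control) or with siADAR1, an siRNA against ADAR1 (KD). It calls the transfection stable but gives the time of silencing in hours. ADAR1, encoded by ADAR, deaminates adenosine to inosine in double-stranded RNA. Poly-A RNA was probed by PARS-seq, with 2 replicates per condition cut by S1 nuclease (unpaired bases) and 2 cut by RNase V1 (paired bases), giving 8 libraries. RNA-seq had 1 library per condition and Ribo-seq, which sequences the fragments protected by ribosomes, had 2 per condition. The study calls the PARS-seq and Ribo-seq replicates biological, but the labels name no separate cultures, so the p-values measure only the spread between these samples. The limma tests used below also draw each variance toward a trend over all genes or transcripts tested. Their SE and p are therefore not set by a member's own replicates alone.

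In the check of the targeted gene, ADAR stood at 54.8 RPKM in the control RNA-seq library and 15.4 in the KD library. In PARS-seq the authors' mean of the S1 and V1 library was 40.7 and 46.8 in control and 15.1 in both KD replicates. In Ribo-seq replicate 1 it was 43.6 in control and 8.73 in KD, but in replicate 2 it was 55.5 in control and 44.03 in KD, 20.6% lower, so the second pair showed much less depletion. The labelled cell type was not borne out by its markers. The 8 liver genes ALB, APOA1, APOB, AFP, TTR, SERPINA1, FGB and TF together reached at most 0.126 RPKM in any library, while COL1A1, a fibroblast collagen, stood between 9.75 and 54.7. The cells are therefore called control and KD cells here, and no other identity is given to them.

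MRP mRNAs were present in every assay, and their levels spanned more than 2 orders of magnitude in RNA-seq. In control RNA-seq the median member stood at 48.3 RPKM, against 11.8 over the 10142 genes with a mean of at least 1 RPKM in both Ribo-seq and RNA-seq. The 5 highest members were MRPL51 at 417, MRPS34 at 379, MRPL24 at 305, MRPL12 at 294 and MRPL23 at 212 RPKM. MRPS34 is a small-subunit protein particular to mitochondria, MRPL12 forms the stalk that recruits translation factors, and MRPL23 and MRPL24 border the exit of the peptide tunnel. The 5 lowest were MRPL1 at 1.46, MRPS36 at 1.64, MRPL42 at 2.22, MRPL19 at 2.53 and MRPS31 at 2.90 RPKM. With 1 library a condition, the order of neighbouring members cannot be told from library error. RPKM is per length, so these levels can be set side by side, but only within the limits of the transcript models and of the assay. In PARS-seq control replicate 2 MRPL1 and MRPL42 stood at 10.4 and 17.7 RPKM, and MRPL51 was again the highest, at 816. Across 72 members the log2 control levels of RNA-seq correlated with those of the 2 PARS-seq replicates at Pearson's r of 0.66 and 0.67. The table also lists rows for the pseudogenes of MRPL42 and MRPL45, so reads of these members may have been lost to or gained from near-identical copies.

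**Figure D1:**
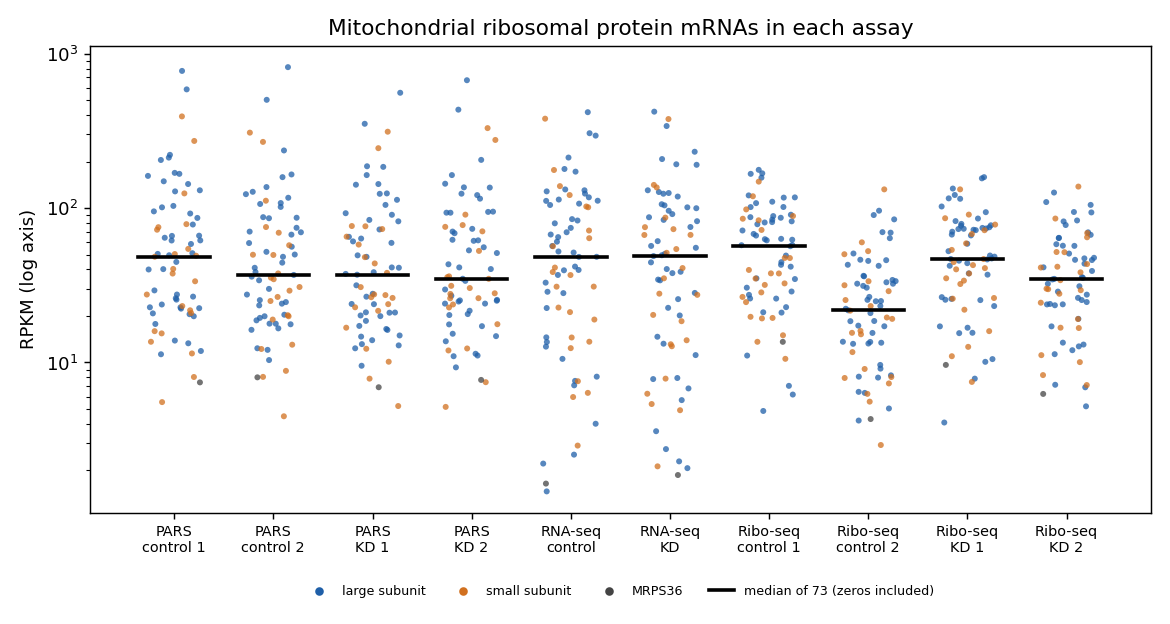
RPKM (log axis) of the 73 members in each column of the table, with large-subunit members in blue, small-subunit members in orange, MRPS36 in dark grey and black bars at the medians. PARS values are the authors' means of the S1 and V1 library; zeros, all of them MRPS18B, cannot be drawn on a log axis, and Ribo-seq control 2 has the lowest median, 21.8.

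The Ribo-seq libraries of 1 condition differed widely from each other. The member median was 56.6 RPKM in control replicate 1 and 21.8 in control replicate 2, and 46.7 and 34.5 in KD replicates 1 and 2. On the log2(RPKM + 1) scale, used for all changes in RPKM below, control replicate 2 lay below control replicate 1 in 67 of 73 members, with a median difference of -1.22, against -0.24 over the 10882 genes with a mean Ribo-seq RPKM of at least 1. The 70 nuclear-encoded oxidative phosphorylation subunits showed a like shift of -1.27, whereas the 44 cytosolic ribosomal proteins that passed the filter had a median of 0.40.

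MRPS18B was listed at 0 in some libraries and well expressed in others. This small-subunit protein is 1 of 3 paralogs, and its gene lies on chromosome 6 at chr6:30585617-30594169 (GRCh37, the build of the files). It stood at 121 RPKM in control and 75.2 in KD RNA-seq, and at 119 and 85.9 in control and KD Ribo-seq replicate 1, but it was listed at 0 in all 4 PARS columns and in both libraries of Ribo-seq replicate 2. In all, 17 rows had this pattern of zeros with over 1 RPKM in the other 4 columns, out of 9238 rows over 1 RPKM in those 4. Of the 13 that could be placed, 12 were on chromosome 6 between 29910309 and 33385884, where they made up all 12 rows over 1 RPKM in the 4 columns. The zeros of MRPS18B thus follow the libraries and not the condition, and its values in those columns are not read as a change. It stays in counts and medians given over all 73 members, among them the comparison of the control Ribo-seq replicates and the limma fits. Comparisons of Ribo-seq replicate 1 with 2, and of Ribo-seq replicate 2 with RNA-seq, cross these sets of columns, and whether both sets were aligned and counted alike was not tested. The other paralogs were listed everywhere. MRPS18A was at 84.7 and 75.3 RPKM in control and KD RNA-seq. MRPS18C was much lower, at 5.97 and 4.91.

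In control cells the Ribo-seq to RNA-seq ratio, meant as a measure of ribosome density per mRNA, varied widely among members. It carries any error of the RNA-seq level, which tracked base composition as given below. The median log2 ratio was -0.03 with control replicate 1 and -0.96 with control replicate 2, where all 10142 genes had medians of -0.38 and -0.61. The ratio lay above 1 with both replicates in 13 members and below 1 with both in 36, MRPS18B with its listed 0 among them, and the backgrounds over all genes were 18.5% and 53.9%. The members thus sat near the background shares, and their place relative to all genes turned around between the replicates.

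The 3 members with the highest mean ratio were low in RNA-seq. MRPL42 had 2.22 RPKM in control RNA-seq but 21.0 and 9.64 in the control Ribo-seq replicates, a ratio of 9.49 and 4.35. In PARS-seq control replicate 2, another measure of its RNA, it stood at 17.7 RPKM. MRPL13, a conserved large-subunit protein, had 10.6 RPKM in RNA-seq and ratios of 8.40 and 1.98. MRPS36 had ratios of 8.27 and 2.62. At the other end, MRPL51 had 417 RPKM in RNA-seq and 168 and 69.8 in Ribo-seq, ratios of 0.402 and 0.167. MRPL24 had ratios of 0.579 and 0.149, and MRPS5, a conserved small-subunit protein at the mRNA entry, had 0.398 and 0.213. All 6 kept their side of 1 in the KD cells, where MRPL42 stood at 7.52 and 6.31 and MRPL51 at 0.370 and 0.299.

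The first 60 coding bases of 5 of these members are shown because base composition ran alongside the ratio. MRPL13 is not shown, and its whole coding sequence held 42.1% G and C. They come from the GENCODE transcripts on GRCh37, and G and C are in capitals. MRPL42 (chr12:93861290-93909990, plus strand) and MRPS36 (chr5:68513587-68525985, plus strand) had high ratios, while MRPL51 (chr12:6601052-6602428, minus strand), MRPL24 (chr1:156707095-156710880, minus strand) and MRPS5 (chr2:95751114-95787553, minus strand) had low ones.
MRPL42: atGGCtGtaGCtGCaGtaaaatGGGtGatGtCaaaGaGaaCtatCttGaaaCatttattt
MRPS36: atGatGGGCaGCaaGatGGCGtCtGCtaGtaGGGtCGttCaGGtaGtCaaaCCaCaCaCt
MRPL51: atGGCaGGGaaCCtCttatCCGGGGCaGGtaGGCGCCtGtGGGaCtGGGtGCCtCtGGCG
MRPL24: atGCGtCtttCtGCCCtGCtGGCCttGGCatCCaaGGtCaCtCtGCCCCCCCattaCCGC
MRPS5: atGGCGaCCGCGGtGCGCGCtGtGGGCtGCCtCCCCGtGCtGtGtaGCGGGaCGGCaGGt
In the stretches shown, G and C made up 35.0% of MRPL42 and 51.7% of MRPS36, against 66.7% of MRPL51, 61.7% of MRPL24 and 73.3% of MRPS5. Over their whole coding sequences the values were 39.9% and 41.4% against 50.5%, 54.2% and 50.2%.

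Across members the same relation held with every Ribo-seq library. GC content of the coding sequence ranged from 38.4% in MRPL1 to 68.1% in MRPS26, with a median of 51.7%. Over the 72 members other than MRPS18B, it correlated with the log2 ratio at Pearson's r of -0.76 and -0.63 (Spearman's rho -0.76 and -0.63) with the control replicates and at -0.78 and -0.78 (rho -0.79 and -0.81) with the KD replicates. Over the 8168 genes with a coding sequence in the annotation, r was -0.71 and -0.49 in control, so the relation was not particular to the members. The members' control RNA-seq level itself correlated with coding GC at 0.74, whereas the PARS-seq level did so at 0.25 and the Ribo-seq levels at 0.39 and 0.65. These are correlations across genes within libraries, and genes are not independent replicates. The points share libraries and gene models, and the part of base composition in the ratios was not tested.

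**Figure D2:**
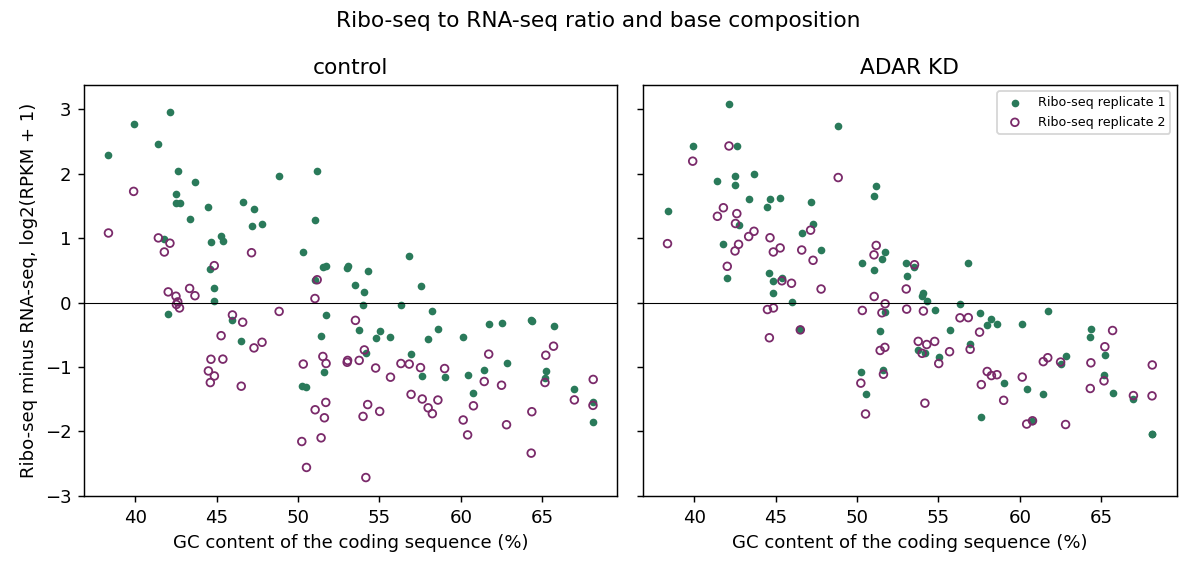
Ribo-seq minus RNA-seq log2(RPKM + 1) of 72 members (without MRPS18B) against GC content of the coding sequence in percent, in control (left) and KD cells (right), with filled green points for Ribo-seq replicate 1 and open purple points for replicate 2. The values are lower at higher GC in all 4 comparisons, with r between -0.78 and -0.63.

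Between KD and control, RNA-seq showed small differences. The member median was -0.13 on the log2 scale, with 24 members higher and 49 lower, while the median of 10946 genes was -0.01. Past 1.5-fold, 4 members were lower and none was higher, and the backgrounds were 4.66% of genes lower and 4.47% higher. The 4 are 5.48% of the members, close to the background. After the libraries were centred on their medians 2 were left, a count without a share over all genes under that setting. MRPS28 went from 21.2 to 12.7 RPKM, MRPS18B from 121 to 75.2, MRPS33 from 12.4 to 7.86 and MRPS7, which binds rRNA in the small subunit head, from 101 to 67.0. MRPL37 was the next lowest, at 172 and 125 RPKM. The 5 members with the largest differences upwards were MRPL34 (132 to 192 RPKM), MRPL33 (60.5 to 83.8), MRPL1 (1.46 to 2.29), MRPS2 (41.2 to 51.3) and MRPL36 (107 to 130). MRPL33, MRPL34 and MRPL36 are small conserved proteins of the large subunit. With 1 library per condition none of these differences has a replicate check, and in bulk RNA fewer cells of a kind and less RNA per cell cannot be told apart.

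The PARS-seq RPKM separated the KD from the control values in many members, most often downwards. Both KD values lay below both control values in 30 of 72 members with a mean of at least 1 RPKM, and above them in 14, and the backgrounds were 27.1% lower and 33.3% higher over 11153 genes. Each value is the authors' mean of 2 libraries, and no test was run. The member median was -0.27 in replicate 1 and -0.01 in replicate 2, against 0.04 over all genes in both, so the lower values came mainly from the first pair.

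Of the 30 lower members 23 belong to the large subunit, which holds 48 of the 72 that passed. These counts are read against shares over all genes of 27.1% below and 33.3% above. Among the subunit's 19 proteins particular to mitochondria 11 were below in both KD values and 0 above, with medians of -0.47 and -0.14. Among the 29 conserved large-subunit genes 12 were below and 5 above. In the small subunit the counts were 4 below and 6 above for the 14 conserved genes, or 28.6% and 42.9%, and 3 below and 3 above for the 9 others that passed. Differences between these classes were not tested. The 6 members at the tunnel exit (MRPL22, MRPL23, MRPL24, MRPL44, MRPL45 and MRPL47) were 4 below and 0 above, and the stalk members MRPL10, MRPL11 and MRPL12 were 2 below and 0 above.

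MRPL50 had the largest difference, with 22.8 and 19.4 RPKM in control and 9.52 and 9.30 in KD. MRPL40 went from 61.7 and 36.9 to 27.8 and 24.1, and MRPL49 from 66.0 and 70.3 to 37.4 and 43.2. All 3 belong to the large subunit and have no bacterial relative, and in each the KD values lay below both control values. The largest increases were in conserved proteins and 1 mitochondrial small-subunit protein. MRPL34 went from 103 and 85.9 RPKM to 142 and 136. MRPS9 went from 49.1 and 57.4 to 73.1 and 75.5. MRPS35, the protein particular to mitochondria, went from 20.9 and 19.0 to 27.6 and 28.0. Again the groups did not overlap.

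Ribo-seq gave opposite directions in the 2 replicates. In replicate 1 the member median of KD minus control was -0.13, with 29 of 73 members higher, and in replicate 2 it was 0.52, with 68 higher, 4 lower and MRPS18B listed at 0 in both libraries. Over all genes the medians were -0.02 and 0.16, with 47.1% and 61.6% higher. The commonest pattern, lower in replicate 1 and higher in replicate 2, held for 41 members (56.2%) and for 29.4% of all genes. Both Ribo-seq comparisons of replicate 2 rest on libraries in which ADAR was little depleted, and control replicate 2 was the low library described above. Coding GC correlated with the members' change at r of -0.47 in replicate 2 and -0.14 in replicate 1, and its part in the result was not tested.

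**Figure D3:**
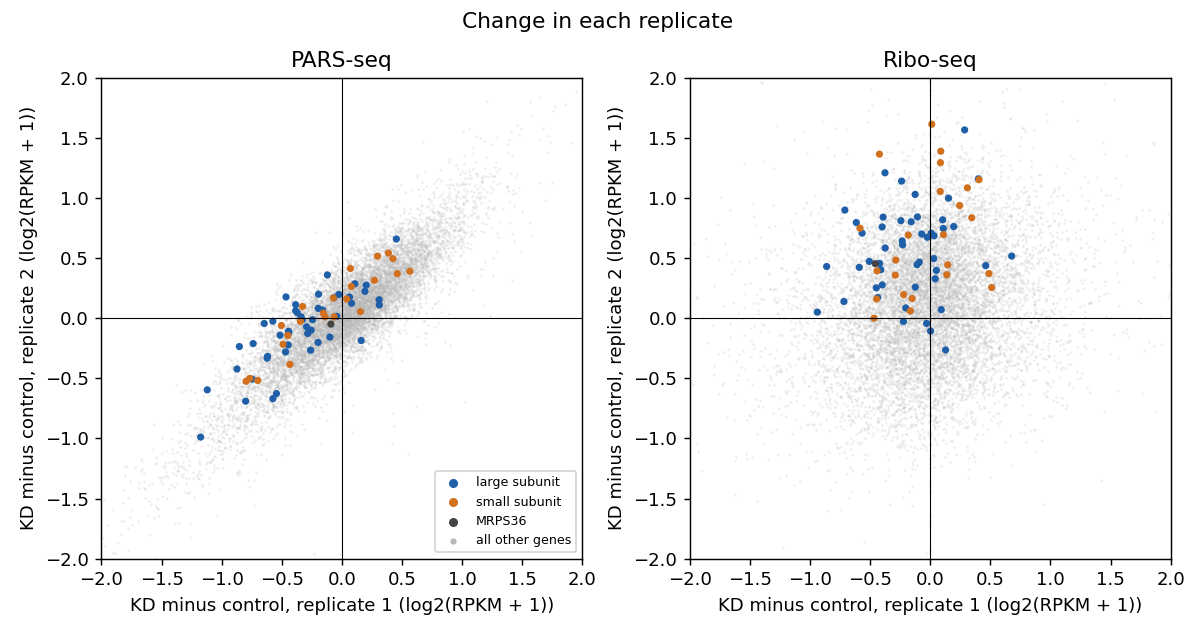
KD minus control on the log2(RPKM + 1) scale in replicate 1 (horizontal) and replicate 2 (vertical) for PARS-seq (left, 72 members) and Ribo-seq (right, 73 members), with large-subunit members in blue, small-subunit members in orange, MRPS36 in dark grey and other genes in light grey (those past 2 in either direction are off the axes). In PARS-seq the replicates run together, while in Ribo-seq 68 members lie above 0 in replicate 2 and 29 lie right of 0 in replicate 1.

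No Ribo-seq change passed the test. With limma on the 4 libraries, 0 of 10882 genes had an adjusted p under 0.05 (a background of 0% in either direction), and 43 had an unadjusted p under that value, none of them a member. The median change over the members was 0.20, against 0.08 over all genes. Without control replicate 1 the member median was 0.81, and without control replicate 2 it was -0.33, so these libraries decide its size and its sign. Both KD values lay above both control values in 8 members and below them in 1, with backgrounds of 10.7% and 7.12%, so the share above was close to the background. The 8 were MRPL4, MRPL19, MRPL30, MRPL34, MRPS5, MRPS12, MRPS16 and MRPS27, named because they make up the count.

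Both replicates were higher in 27 of 73 members (36.99%) and lower in 2 (2.74%), with backgrounds of 31.3% and 21.8%. The 3 largest differences upwards among them were in MRPL32, MRPS23 and MRPL33. MRPL32, a conserved large-subunit protein matured by the m-AAA protease, went from 57.4 and 18.6 RPKM in control to 70.2 and 56.9 in KD. MRPS23 went from 39.7 and 9.08 to 40.1 and 29.8, and MRPL33 from 87.2 and 24.98 to 115 and 57.0. In all 3 the difference lay mostly in replicate 2, through the low control value, and the groups overlapped. The 2 lower members were MRPL12, from 110 and 96.1 to 94.0 and 94.2 RPKM, and MRPL37, from 117 and 84.4 to 115 and 81.9. MRPL12 was the member with no overlap, but its KD values lay just under control replicate 2.

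**Figure D4:**
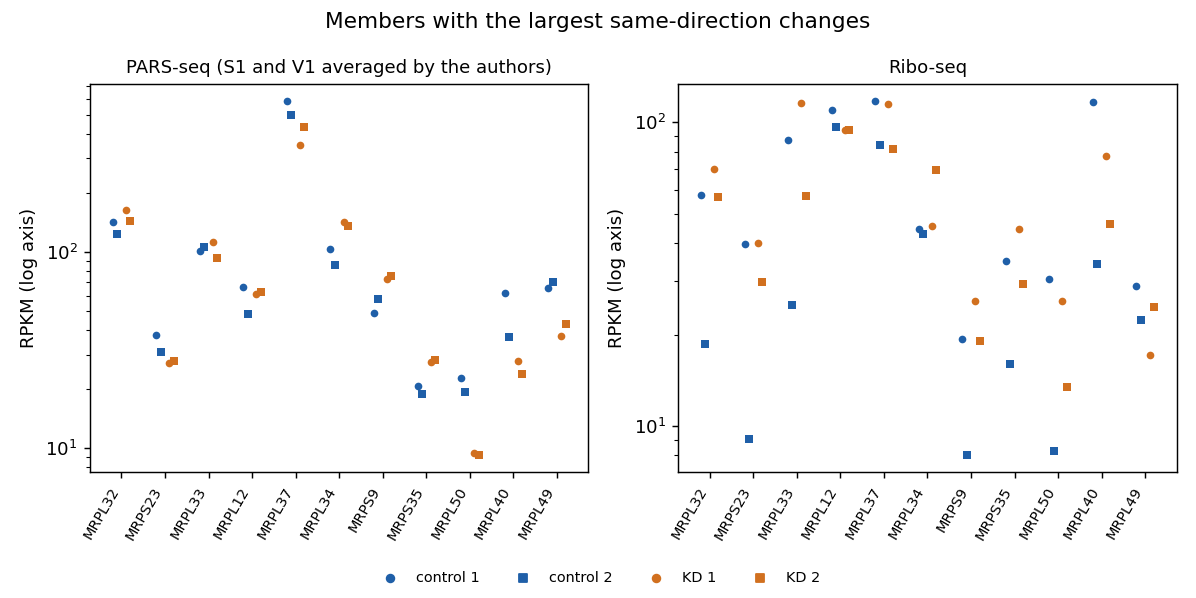
RPKM (log axis) of the 11 members with the largest changes in the same direction in both replicates of Ribo-seq or PARS-seq, with control in blue, KD in orange, circles for replicate 1 and squares for replicate 2. In PARS-seq MRPL50, MRPL40 and MRPL49 have both KD values below both control values, while in Ribo-seq control replicate 2 is the lowest value of MRPL32, MRPS23 and MRPL33.

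The translation efficiency ratio (TER), the change in Ribo-seq divided by that in RNA-seq, carried the same split. Its member median was 0.01 in log2 with Ribo-seq replicate 1 (37 of 73 above 0) and 0.70 with replicate 2 (69 of 73). MRPS18B is among these 69 through its RNA-seq difference of -0.68 alone, as both its Ribo-seq values in replicate 2 are listed at 0. In limma 0 of 10142 genes passed (background 0%), and 2 genes, no member among them, had an unadjusted p under 0.05. The median over members was 0.33, against 0.10 over all genes, and it ran from -0.23 without Ribo-seq control replicate 2 to 0.98 without control replicate 1. RNA-seq has no replicate, so its library error enters every TER value unmeasured, and the fit assumes for it the spread seen in Ribo-seq. The largest increases in both replicates were in small-subunit genes. The ratio of Ribo-seq to RNA-seq of MRPS28 went from 4.02 and 0.904 in control to 7.12 and 4.06 in KD, that of MRPS33 from 1.99 and 0.506 to 3.33 and 2.14, and that of MRPS22 from 2.09 and 0.686 to 3.19 and 1.84. Among members below 0 in both replicates, MRPL1, MRPL12 and MRPL10 were lowest, with log2 TER of -0.87 and -0.17, -0.43 and -0.23, and -0.10 and -0.49. MRPL10 and MRPL12 interact in the stalk.

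Read starts of the PARS-seq libraries could be summed for 34 members, those that a list of the study pairs with a UCSC transcript. That list holds transcripts whose paired share changed in the same direction in both replicates, after cuts on length, read starts and the size of the difference, so these 34 are not a sample of the 73 and the shares given over all transcripts include less covered ones. MRPS6, which is on it, is not a member. Each had between 561 and 34167 read starts per library. Libraries held 96618292 to 214584779 read starts, 26.0% to 54.7% of them on a single transcript, and S1 control replicate 1 lists only 4722 transcripts. With S1 the share of that transcript was 26.0% in control and 45.0% in KD replicate 1, and 35.9% and 42.2% in replicate 2. With V1 it was 34.6% and 54.7% in replicate 1, and 42.2% and 42.4% in replicate 2. All other transcripts together hold less of a library where this share is higher. In RPM, read starts per 1000000 of those on the transcripts listed in all 4 libraries of an enzyme, the members were mostly lower in KD with both enzymes, and again more so in the first pair. The 2 pairs differed in size. With S1, 34 of 34 were lower in replicate 1 (median -0.87 in log2) and 27 in replicate 2 (median -0.16). With V1, 33 were lower in replicate 1 (median -0.84) and 22 in replicate 2 (median -0.08). Shares over all transcripts are not given for single replicates, so these counts have no background of their own. In the fit over both replicates 32 of the 34 were below 0 with S1 and 31 with V1, where 79.5% and 61.2% of all transcripts were.

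With S1, 8 of the 34 members fell and none rose in limma at an adjusted p under 0.05, and the backgrounds among 4721 transcripts were 18.6% lower and 1.48% higher. The S1 count of members lower was thus near its background. With V1, 5 fell and none rose, where the backgrounds among 16885 transcripts were 7.9% and 2.05%. The member median was -0.53 with S1 and -0.40 with V1, and that of all transcripts was -0.36 and -0.14. Under TMM scaling, which removes this general shift, the median of all transcripts was 0.00 and 0.05 and that of the members -0.17 and -0.22, with 24 and 26 of the 34 below 0 (49.4% and 46.0% of all transcripts). The calls over all transcripts under TMM changed from 70 higher and 878 lower to 306 and 438 with S1, and from 346 and 1334 to 682 and 994 with V1. Of the members, 4 stayed lower and 1 became higher with S1, and 5 stayed lower with V1. Leaving out 1 library moved the member median with S1 from -0.25 without control replicate 1 to -0.79 without control replicate 2, and with V1 from -0.19 without KD replicate 1, where that of all transcripts was 0.03, to -0.67 without KD replicate 2.

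The members that fell with both enzymes were MRPL40, MRPL42, MRPL49, MRPL53 and MRPS7. With the replicate number added to the fit as a block, MRPL40 alone kept its V1 call. MRPL40 had an S1 RPM of 45.7 and 23.2 in control and 15.3 and 13.5 in KD, a log2 change of -1.18 ± 0.33 (SE; limma adjusted p = 0.00374). Its V1 read starts went from 18.3 and 10.6 to 5.36 and 6.49 RPM, a change of -1.24 ± 0.32 (limma adjusted p = 0.00253). With both enzymes its KD values lay below its control values. Under TMM scaling it was also called, with limma adjusted p of 0.0241 for S1 and 0.0332 for V1.

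MRPL49 had an S1 RPM of 95.5 and 98.8 in control and 41.2 and 50.6 in KD (log2 change -1.09 ± 0.28, limma adjusted p = 0.00112). Its V1 values were 83.2 and 71.2 in control and 32.4 and 47.6 in KD (-0.97 ± 0.33, limma adjusted p = 0.0329). MRPS7 went from 32.5 and 19.9 to 9.85 and 11.9 with S1 (-1.23 ± 0.34, limma adjusted p = 0.00355) and from 31.7 and 26.3 to 13.9 and 16.1 with V1 (-0.95 ± 0.32, limma adjusted p = 0.0334). MRPL49 and MRPS7 were called with both enzymes under TMM scaling too, but not with V1 under the block. MRPL42 and MRPL53 fell by 0.86 ± 0.31 and 0.95 ± 0.28 with S1 and by 0.96 ± 0.32 and 0.90 ± 0.32 with V1 on the log2 scale, and their S1 calls were lost under TMM scaling, with limma adjusted p of 0.135 and 0.0699. In none of the 5 did the groups overlap with either enzyme, but the 5 were picked by their calls, so this adds no support. The share of all transcripts without overlap is not given.

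MRPL43, MRPS15 and MRPL13 fell with S1 only by the threshold. MRPL43 had the largest S1 change, from 75.2 and 50.6 to 22.7 and 27.3 RPM (-1.31 ± 0.30, limma adjusted p = 0.000231), and its V1 change of -0.83 ± 0.32 had a limma adjusted p of 0.0811. MRPS15 and MRPL13 changed by -0.96 ± 0.27 and -0.86 ± 0.27 with S1 and both by -0.78 ± 0.32 with V1. Under TMM scaling MRPL43 was again called with S1 (limma adjusted p = 0.00341), while MRPS15 and MRPL13 were not (limma adjusted p of 0.0532 and 0.167). The difference between the enzymes was not tested. MRPL34 had estimates above 0 with both enzymes. It had an S1 RPM of 85.1 and 58.0 in control and 82.3 and 87.2 in KD. With V1 the values were 44.5 and 36.5 against 45.5 and 53.7. Its S1 change of 0.27 did not pass but became 0.63 and passed under TMM scaling (limma adjusted p = 0.0449). Leaving out 1 library changed the S1 count of members lower from 0 (without KD replicate 1) to 21 (without control replicate 2), while the lower calls over all 4721 transcripts went from 250 to 1722. MRPL43 and MRPL49 were the 2 called without control replicate 1 as well as without KD replicate 2. The V1 count was 0 without control replicate 1, 1 (MRPL40) without KD replicate 1 or control replicate 2, and 7 without KD replicate 2, where the lower calls over all 16885 transcripts were 418, 792, 1022 and 1465 in that order.

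**Figure D5:**
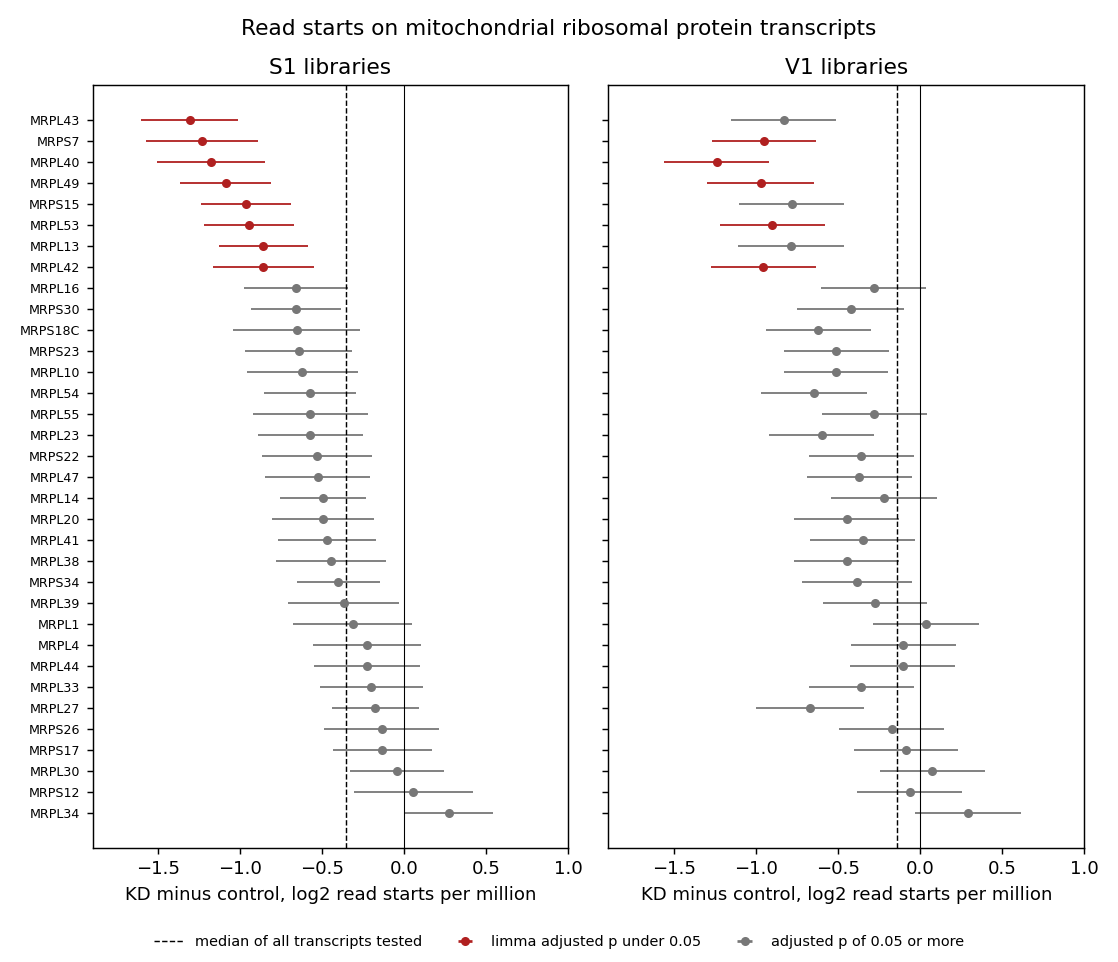
KD minus control in log2 RPM of read starts for the 34 members with a transcript, with S1 libraries on the left and V1 libraries on the right; points are limma estimates, bars are their standard errors, red marks an adjusted p under 0.05 and the dashed line is the median of all transcripts tested. The 8 members called with S1 are at the top, and 5 of them are also called with V1.

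The balance of V1 to S1 read starts, where more V1 means more cuts at paired bases, has a zero set by the scaling of each enzyme's libraries, so its sign says nothing of how paired a transcript was and only members within a library pair can be compared. The median in log2 was -0.51 in control replicate 1 and -0.36 in control replicate 2, and -0.47 and -0.14 in the KD replicates. MRPL53 had the lowest balance in both control replicates (-2.06 and -1.44) and in both KD replicates (-1.87 and -1.54). MRPS26 had the highest in both control replicates (0.47 and 0.48). As the list was made from this contrast, these are a description only.

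The differences in read starts and in PARS-seq RPKM come from the same libraries and are not independent. Against the other assays, MRPL40 was lower in KD in RNA-seq (67.3 and 50.4 RPKM) and in Ribo-seq replicate 1 (117 and 77.3), but higher in replicate 2 (34.2 and 46.2). MRPS7 had 98.0 and 71.8 RPKM in Ribo-seq replicate 1 and 28.9 and 38.3 in replicate 2. MRPL49 differed little in RNA-seq (64.8 and 61.0 RPKM), and was at 28.8 and 17.1 in Ribo-seq replicate 1 and at 22.3 and 24.6 in replicate 2. In these 3 members the direction seen in PARS-seq recurred in RNA-seq and Ribo-seq replicate 1 and turned around in Ribo-seq replicate 2.

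Of the other mitoribosomal proteins, with symbols that the rule does not take, 6 of 7 had a row of their own. In PARS-seq 2 were higher and 4 lower with no overlap, where the shares over all genes were 33.3% and 27.1%. DAP3, the GTP-binding protein of the small subunit, was higher in KD in every pair of every assay, and was singled out after its values were seen. It had 43.9 and 74.2 RPKM in control and KD RNA-seq, 32.3 and 30.5 against 69.1 and 69.7 in PARS-seq, and 32.2 and 16.8 against 57.5 and 33.4 in Ribo-seq, where the limma adjusted p was 1.00. Of the assembly factors, whose list holds older and newer symbols of some genes, 17 had a row of their own and DHX30 and FASTKD2 did not. In these 17, 7 were higher (41.2%) and 3 lower (17.6%) in PARS-seq with no overlap. Of the translation factors 13 of 14 had a row and 12 passed the filter, with 5 higher (41.7%) and 3 lower. Neither list had a gene past 1.5-fold in RNA-seq, against 4.47% higher and 4.66% lower over all genes. Also singled out after their values were seen, LRPPRC and SLIRP, which together stabilise mitochondrial mRNAs, were among the higher translation genes. LRPPRC was at 30.5 and 29.6 RPKM in control and 40.3 and 41.8 in KD PARS-seq, and SLIRP at 166 and 193 against 196 and 251.

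Among oxidative phosphorylation subunits, too, the KD values of PARS-seq were mostly lower. Of their 70 genes, 41 (58.6%) had both KD values below both control values and 3 (4.29%) above. Of 45 cytosolic ribosomal protein genes 4 (8.89%) were below and 8 (17.8%) above. Over all genes the shares were 27.1% and 33.3%. Their RNA-seq medians were -0.19 and 0.03, beside -0.13 for the members. In Ribo-seq replicate 2 the 3 sets had medians of 0.68, 0.63 and 0.52, so the higher values in that replicate were shared with both. None of these differences between sets was tested.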

How the data were processed

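The data were 14 libraries of control and KD cells (8 PARS-seq, 2 RNA-seq, 4 Ribo-seq), grouped by their labels. The authors trimmed reads with cutadapt, aligned them with Bowtie2 in local mode to hg19 (GRCh37), kept unique alignments, counted them on RefSeq transcripts and deposited RPKM values. Depth behind the RPKM is unknown. For PARS-seq the deposited RPKM is the authors' mean of the S1 and V1 library of a replicate, used as a value with no SD or test. The authors also deposited whole numbers of read starts per base of each UCSC transcript, without normalization, which were summed per transcript here and divided by the total over transcripts listed in all 4 libraries of an enzyme. Tool versions are not given in the sources used here. 

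RPKM was analysed as log2(RPKM + 1), keeping genes whose mean reached 1, so changes of low genes are understated. Ribo-seq, TER (assay by condition interaction) and read starts (0.5 added; kept where 2 libraries held the equivalent of 10 at median depth and the sum reached 15) were fitted with limma 3.58.1 in R 4.3.3, with a mean trend and Benjamini-Hochberg adjustment over all genes, and tested on simulated data. For 2 libraries per condition the smallest two-sided p of an exact permutation is 0.333, so none was used. Counting tools were not used, because the files hold RPKM and per-base cells. Python 3.11.15 with pandas 2.3.3 did the rest. All 73 members matched a GENCODE v44lift37 gene, from which length, GC and sequences come.

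The members, gene lists and groups were chosen with earlier results of these data known. Most genes were named by rule: ADAR; the 5 highest and 5 lowest in control RNA-seq; per comparison the 3 largest increases and decreases among members whose replicates shared a sign, and every call; the 5 largest RNA-seq rises and falls; the 3 highest and lowest Ribo-seq to RNA-seq ratios; the MRPS18 paralogs; and MRPS30 and MRPS36. Outside the rule, DAP3, LRPPRC and SLIRP were picked after their values were seen, and others are named as parts of a count, a list or a range. Alternatives covered pseudocount, filter, scaling, the replicate block and each left-out library.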

Additional observations from a re-analysis of the deposited data

How the results depend on the processing

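No member was called in Ribo-seq or TER under any alternative run. Replicate numbers are shared between conditions, and deviations of same-numbered libraries correlated at 0.81 in Ribo-seq, 0.47 with S1 and 0.39 with V1. There are only 2 pairs, and no label names a shared batch. In Ribo-seq both libraries of replicate 2 shared the zeros described for MRPS18B. Over 10142 genes same-numbered Ribo-seq libraries correlated at 0.96 and 0.95, against 0.80 between the control and 0.87 between the KD libraries. With the replicate as a block, 85 genes were called higher and 58 lower in Ribo-seq, and 1 higher and 3 lower in TER. With V1 1 member was lower (MRPL40), so the V1 calls of MRPL42, MRPL49, MRPL53 and MRPS7 were lost. Of all 16885 transcripts 441 were then higher and 1307 lower. With S1 8 of 34 members were again lower, where 90 of all 4721 transcripts were higher and 953 lower, so that count was near the background. Leaving out 1 library gave member medians from -0.33 to 0.81 in Ribo-seq and from -0.23 to 0.98 in TER, where 1 gene became higher without KD replicate 1. Leaving out MRPS18B, an alternative chosen after seeing the data, gave medians of 0.21 and 0.33.

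For S1, TMM scaling gave 1 member higher and 4 lower (306 and 438 transcripts), and the total without the most covered transcript 1 and 5 (308 and 455). Under these scalings the changes of MRPL1 and MRPL33 turned to 0.048 and 0.16, and to 0.041 and 0.15. For V1 the calls over all transcripts became 682 higher and 994 lower with TMM scaling. They became 895 higher and 898 lower without the most covered transcript, with 5 members lower each time. Without 1 library, S1 calls ranged from 8 to 111 higher and from 231 to 1722 lower, with 0 to 21 members lower, and the change of MRPL34 ranged from -0.0069 to 0.55; V1 calls ranged from 120 to 352 higher and from 418 to 1465 lower, with 0 to 7 members lower, and that of MRPL1 from -0.27 to 0.34, with -0.079 without KD replicate 2. The causes of these changes were not tested. In RNA-seq 1 member passed 1.5-fold higher with a pseudocount of 0.1, 2 were lower after median centring, and 0 were lower past 2-fold. Shares over all genes under these settings are not given, so these counts cannot be read against a background. The depth behind the RPKM is unknown, so what it limits cannot be given.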
